A study of Mus musculus with 8 samples.

Results

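The sarcomere is the contractile unit of heart muscle, and 41 genes of its filaments and of the Z-discs that anchor them were followed in mouse embryonic ventricles. They were chosen by symbol as thick and thin filament, titin, M-band, Z-disc and sarcomere assembly genes, and each was found on 1 row of a primary chromosome, 41 of 52778 rows in all. RNA was sequenced from ventricles of Mus musculus embryos at embryonic day 11.5, with 4 conditional knockout (cKO) and 4 control libraries. The cKO embryos carried 2 floxed copies of Rps19bp1 and 1 copy of Xmlc2-Cre (Rps19bp1 fl/fl; Xmlc2-Cre +/−), a driver of Cre recombinase in cardiomyocytes, so deletion was directed to cardiomyocytes and not to the other cells of the ventricle. Rps19bp1 encodes a nucleolar partner of ribosomal protein S19. The controls are labelled only as control, with no alleles or Cre status given. The genotype field reads C57BL/6 WT for all 8 libraries, against the titles and the treatment field. The libraries are described as biological replicates, all carry the same batch label, and litters and pooling of embryos are not given.

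Values are TPM, a share of all transcripts in a library that accounts for transcript length, so levels can be compared between genes. TPM keeps no depth, so the reads behind each value are unknown. Rps19bp1 held 40.9, 44.2, 34.7 and 40.05 TPM in control libraries 1 to 4 and 15.2, 11.8, 13.7 and 19.2 TPM in cKO libraries 1 to 4, and fell to 37.5% of control. The share of TPM on the mitochondrial chromosome was 13.2% to 16.2% in cKO and 11.4% to 12.2% in control, without overlap, and since TPM sums to a fixed total this leaves less for all other rows in cKO. Tissue identity was checked with marker lists, because the extraction text names cortical neurons and ribosomal RNA depletion while the series text names ventricles and an mRNA kit. The 18 cardiomyocyte genes outside the sarcomere, led by Atp2a2 and Pln, summed to 4399.6 to 4773 TPM in cKO and 4489 to 4814 TPM in control. Of them 9 had a higher and 9 a lower fitted level in cKO. In the limma fit described below, 3 passed an adjusted p of 0.05 as higher (Casq2, Cox7a1 and Corin) and 2 as lower (Nkx2-5 and Mb), where 6.4% of all tested rows passed. Atp2a2 was lower in every cKO library than in any control without passing (limma adjusted p = 0.174), and Pln overlapped. Of 10 neuronal markers 7 had a mean under 1 TPM and Neurod6 was listed at 0 throughout, while Camk2a stood at 117 TPM in control. The skeletal muscle markers Myod1, Myf5 and Myf6 were listed at 0 in all 8 libraries.

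Markers of other cells in the ventricle differed between the groups. Epicardial markers, led by Upk3b and Krt19, summed to 432 to 532 TPM in cKO and 368 to 427 TPM in control. All 8 had a higher mean in cKO, and 4 of the 8 passed an adjusted p of 0.05 in the limma fit. Mesenchymal markers, led by Vcan and Col3a1, summed to 1251 to 1390.2 TPM in cKO and 903 to 1088 TPM in control. All 10 had a higher mean in cKO, and 4 of the 10 passed. Of all tested rows 2.16% passed as higher, but the marker lists were chosen with earlier results of these data known. Ventricular markers other than sarcomere genes summed to 589 to 661 TPM in cKO and 671 to 714 TPM in control. All 6 had a lower mean in cKO, and Irx4 alone of the 6 passed, where 4.23% of all tested rows passed as lower. None of these 3 sums overlapped between the groups, and their part in the results on sarcomere genes was not tested. In 5 further lists no marker passed and the sums overlapped. Atrial markers summed to 146 to 160.1 TPM in cKO and 150.0 to 157 TPM in control. Smooth muscle markers summed to 1423 to 1659 TPM in cKO and 1499 to 1757 TPM in control. A large part of the smooth muscle sum is Des, which is also a Z-disc gene among the sarcomere genes followed here. Des had a mean of 621 TPM in cKO and 722 TPM in control, and the smooth muscle sum without Des was not compared. Endocardial and endothelial markers summed to 998 to 1137 TPM in cKO and 971 to 1023 TPM in control. Erythroid markers summed to 1943 to 4124 TPM in cKO and 2098 to 7668 TPM in control, and macrophage markers to 70.5 to 122 TPM in cKO and 66.7 to 92.3 TPM in control. In bulk tissue, fewer cells of a type and less RNA per cell cannot be told apart.

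In a sarcomere, myosin of the thick filament pulls on actin of the thin filament, troponin and tropomyosin switch the thin filament with calcium, titin spans from Z-disc to M-band, and alpha-actinin cross-links actin at the Z-disc. The embryonic heart beats while these structures are still being built, and it uses developmental isoforms that are partly exchanged around and after birth. Building them needs dedicated factors, among them the myosin chaperone Unc45b, the muscle methyltransferase Smyd1 and the pointed-end capping proteins of the tropomodulin family.

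Among these genes the ones that passed the test were genes of assembly, filament capping and stress response, while no myosin, actin, troponin or tropomyosin gene of the 41 did. Of 40 members with a mean of at least 1 TPM, 4 passed an adjusted p of 0.05 in a limma fit over 15541 rows. Hspb7, Unc45b and Tmod1 fell and Ankrd1 rose. Hspb7 alone was called under all 17 alternative settings, and Unc45b and Tmod1 were not called under any of the 3 other scalings. Myh6 and Tnni1 did not pass, although their groups did not overlap and their 95% intervals lay below 0. A difference between these kinds of genes was not tested. Tmod1 is counted below among the thin filament genes. Outside the 41, the troponin gene Tnni2 also fell (log2 change -0.55, limma adjusted p = 0.0024) and passed under all 17 alternatives. The members' share of 10% stood beside 6.4% of all tested rows (2.16% higher and 4.23% lower in cKO), so the 4 calls are results on single genes and not on the list. Of all calls 33.8% were higher in cKO as deposited, and 47.8% to 50.2% under the 3 other scalings described here. The median change on the log2(TPM + 1) scale was -0.05, against -0.02 for all tested rows. Without control replicate 2 this order turned, at -0.017 for the members against -0.031 for all tested rows. The mean was lower in cKO for 27 of the 40, against 8678 of all 15541 rows, and this count became 25 after quantile normalization and 23 after median-ratio scaling or after rescaling without mitochondrial and globin rows. All 40 intervals (95%, from the fit) lay within a 1.5-fold change in either direction, and 33 lay within a 1.3-fold change, among them all 20 thick and thin filament genes. The 41 genes together took 6.66% to 7.23% of TPM in control and 6.49% to 6.91% in cKO, and the groups overlapped.

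**Figure D1:**
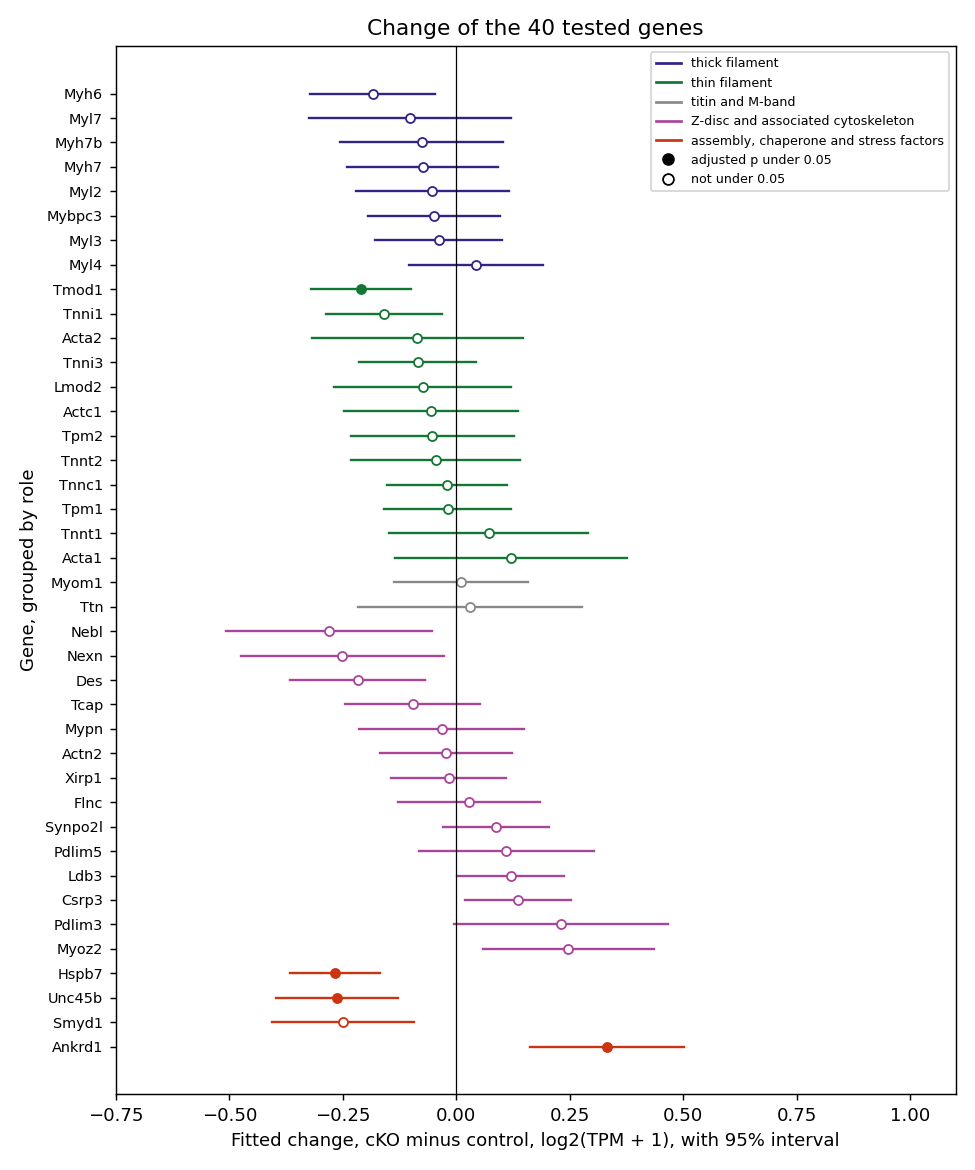
Fitted change of the 40 tested genes, cKO minus control, on the log2(TPM + 1) scale (x axis), by gene and role (y axis). Points are fitted changes, lines are 95% intervals, and filled points passed an adjusted p of 0.05. Of the 20 thick and thin filament genes, 17 have intervals that span 0 and 3 (Tmod1, Myh6 and Tnni1) have intervals below 0. The fitted changes of the 4 assembly, chaperone and stress genes lie between -0.27 and 0.33, and 3 of the 4 passed.

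Hspb7, which encodes a small heat shock protein of heart and skeletal muscle that binds the actin cross-linker filamin C, was the member with the smallest p (chr4:141420779-141425310, plus strand, GRCm38). Control libraries 1 to 4 held 691, 742, 746 and 737 TPM, and cKO libraries 1 to 4 held 605, 607, 613 and 595 TPM. All 4 cKO libraries lay below all 4 control libraries, and the cKO libraries lay close to each other. The mean fell to 83.03% of control, at 605 ± 7.75 against 729 ± 25.4 TPM (SD, n = 4; log2 change -0.27, SE 0.0449, limma adjusted p = 0.0106). Of the 40 tested members it was the only member called under all 17 alternative settings, where its log2 change ran from -0.29 to -0.23.

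Unc45b, the chaperone that folds the myosin motor domain in striated muscle, fell as well (chr11:82911253-82943406, plus strand). Control libraries 1 to 4 held 233, 244, 212 and 217 TPM, and cKO libraries held 183, 206, 179 and 187 TPM. The groups did not overlap, although cKO replicate 2 came near the lowest control. The mean was 227 ± 14.5 TPM in control and 189 ± 11.7 TPM in cKO (SD, n = 4; log2 change -0.26, SE 0.0606, limma adjusted p = 0.0345). The symbol also stands on 3 rows of alternate scaffolds, which were listed at 0 in every library. The call was lost under 12 of the 17 alternatives. Leaving out any 1 library except cKO replicate 2 ended this call (adjusted p from 0.0516 to 0.0864 in those 7 fits), and rescaling without mitochondrial and globin rows left a log2 change of -0.23 (adjusted p = 0.0524).

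Tmod1 encodes tropomodulin 1, which caps the pointed end of the actin filament and so sets its length (chr4:46038940-46116032, plus strand). Control libraries 1 to 4 held 302, 323, 306 and 294 TPM and cKO libraries 249, 278, 268 and 263 TPM, again without overlap. It fell to 86.4% of control (log2 change -0.21, SE 0.0495, limma adjusted p = 0.0365). Tstd2 overlaps it on the opposite strand, so part of its reads is uncertain if counting ignored strand. The call was lost under 13 of the 17 alternatives, among them leaving out any 1 library except cKO replicate 2 (adjusted p from 0.0523 to 0.0916 in those 7 fits) and each of the 3 other scalings (log2 changes -0.16, -0.18 and -0.18).

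Smyd1, a muscle-restricted methyltransferase that also associates with Unc45b in myosin folding, did not pass the threshold (chr6:71213940-71262281, minus strand). Its control libraries 1 to 4 held 399.9, 381, 355 and 358 TPM and its cKO libraries 289, 354, 297 and 319 TPM. The groups were apart, but cKO replicate 2 lay just under the lowest control. The log2 change was -0.25 (95% interval -0.41 to -0.09, limma adjusted p = 0.0636). Leaving out cKO replicate 2 gave -0.31, which passed (adjusted p = 0.0298).

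Ankrd1 was the member that rose (chr19:36111965-36119844, minus strand). It encodes a titin-binding ankyrin repeat protein that shuttles between the sarcomere and the nucleus and is known to rise in strained or stressed heart muscle. Control libraries 1 to 4 held 747, 878, 777 and 916 TPM, and cKO libraries held 1016, 1017, 1141 and 997 TPM. Every cKO library lay above every control library, with cKO replicate 3 the highest. In cKO the mean was 1043 ± 65.9 TPM, against 829 ± 80.7 TPM in control (SD, n = 4), and the gene rose (log2 change 0.33, SE 0.0763, limma adjusted p = 0.0335). Its size was similar under the 3 other scalings (0.36, 0.37 and 0.37). The call was lost under 9 of the 17 alternatives, including the fits without control replicates 1, 2 or 3 and without cKO replicates 1, 2 or 3 (adjusted p from 0.0542 to 0.0954). The library with the highest Ankrd1, cKO replicate 3, also had the highest mitochondrial share. After rescaling without mitochondrial and globin rows the log2 change of Ankrd1 was 0.37 (limma adjusted p = 0.0299), and any other link between that share and Ankrd1 was not tested.

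**Figure D2:**
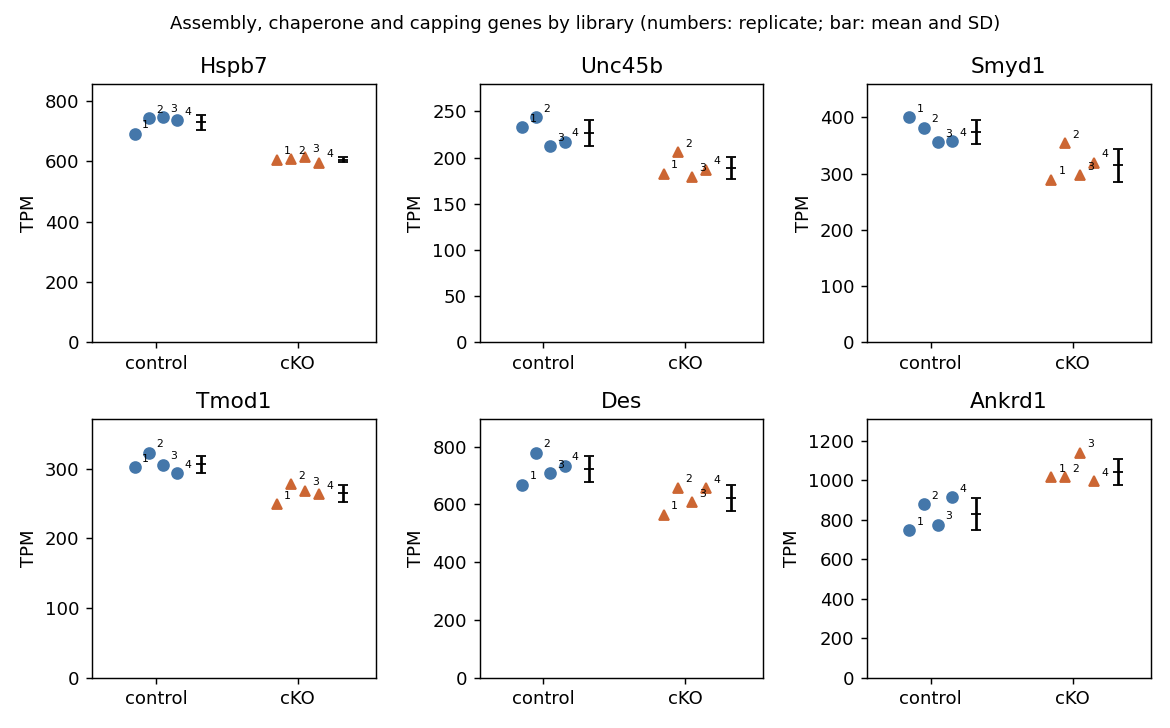
TPM (y axis, from 0) of Hspb7, Unc45b, Smyd1, Tmod1, Des and Ankrd1 in each control (circles) and cKO (triangles) library, numbered by replicate, with the mean and SD of each group as a bar. In all 6 genes the groups do not overlap, and Ankrd1 is the gene that is higher in cKO.

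Promoter sequences of Hspb7, Unc45b and Ankrd1 are shown because these members moved, with that of Actc1 beside them as the most abundant member. Each is the 250 bases before the transcription start in RefSeq (GRCm38.p6), written 5′ to 3′ on the gene's strand. These 4 windows end just before the start of the gene's row, while the Tmod1 window lies within its row and is not shown. Capitals mark matches on either strand to the CArG box (the site of serum response factor), to the MEF2 site, to the M-CAT core CATTCC bound by TEAD factors, to a GATA factor motif written as AGATAA, or to the TATA box letters TATAAA.
Hspb7 (chr4:141420529-141420778, plus strand): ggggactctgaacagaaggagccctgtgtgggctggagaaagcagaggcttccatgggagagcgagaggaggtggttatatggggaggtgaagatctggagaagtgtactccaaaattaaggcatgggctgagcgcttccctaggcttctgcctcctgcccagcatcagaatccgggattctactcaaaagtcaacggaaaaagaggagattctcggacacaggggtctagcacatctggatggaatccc
Unc45b (chr11:82911003-82911252, plus strand): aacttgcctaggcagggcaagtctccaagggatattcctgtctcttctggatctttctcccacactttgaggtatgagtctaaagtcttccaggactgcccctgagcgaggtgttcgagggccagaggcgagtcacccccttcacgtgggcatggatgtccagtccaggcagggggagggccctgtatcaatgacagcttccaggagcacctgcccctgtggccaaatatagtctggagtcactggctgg
Ankrd1 (chr19:36119845-36120094, minus strand): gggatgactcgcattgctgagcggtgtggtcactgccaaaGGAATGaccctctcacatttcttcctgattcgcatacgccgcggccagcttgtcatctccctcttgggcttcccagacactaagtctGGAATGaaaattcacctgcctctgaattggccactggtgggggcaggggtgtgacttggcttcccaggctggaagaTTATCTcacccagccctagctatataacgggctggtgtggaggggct
Actc1 (chr2:114052876-114053125, minus strand): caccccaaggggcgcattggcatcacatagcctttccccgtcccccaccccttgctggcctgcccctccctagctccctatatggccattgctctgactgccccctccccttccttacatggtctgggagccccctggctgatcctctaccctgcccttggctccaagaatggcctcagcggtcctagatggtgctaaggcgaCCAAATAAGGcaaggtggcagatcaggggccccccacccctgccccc

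Ankrd1 held 2 matches to CATTCC, both on the opposite strand, at 210 to 205 and at 123 to 118 bases before the start, and 1 match to AGATAA at 47 to 42 bases. The Tmod1 window held 1 match to CATTCC, and the Hspb7 and Unc45b windows held none of the 5 motifs. Actc1 held 1 CArG box at 47 to 38 bases before the start, which reads as a match on both strands. No match in these windows overlapped another motif. Promoters were matched by symbol for 37 of the 41 members, with none for Myom2, Xirp1, Nexn and Tcap. A CArG box, a site that directs many muscle genes, was present in 6 of these 37 (Actc1, Acta1, Myl3, Myl7, Myom1 and Ldb3), or 16.2%, and in 1.47% of all 32851 promoter entries of this length. CATTCC was present in 13 of 37, or 35.1%, against 12.6% of all entries, the MEF2 site in 10.8% against 0.508%, AGATAA in 13.5% against 9.99%, and TATAAA in 10.8% against 12.4%. These matches describe letters and were not tested against the expression values.

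Of the 8 thick filament genes none passed, and 7 had a lower fitted level in cKO (8 after quantile normalization). Among all tested rows 55.8% had a lower fitted level, and this split was not tested. The summed level of the 8 genes was 29902 ± 1097 TPM in control and 28900.2 ± 932 TPM in cKO (SD, n = 4), with overlapping groups. The median of their log2 changes was -0.06. Myl2, the ventricular regulatory light chain and their most abundant member, held 9853, 10413, 9659 and 8890.0 TPM in control libraries 1 to 4 and 9309.5, 9296, 9393 and 9373 TPM in cKO libraries 1 to 4. The cKO values fell inside the control range (log2 change -0.05, SE 0.0758, 95% interval -0.22 to 0.12, limma adjusted p = 0.723). Its atrial counterpart Myl7 held 3655, 3228, 3194 and 3045 TPM in control and 3219.8, 3522, 2576 and 2964 TPM in cKO, with cKO replicate 3 the lowest and the groups overlapping (log2 change -0.10, SE 0.1, adjusted p = 0.589). Myh7, the slow beta myosin heavy chain that dominates the embryonic mouse ventricle, held 4779, 5508, 5216 and 5059 TPM in control and 4499, 5252, 4889 and 4901 TPM in cKO. These groups overlapped as well (log2 change -0.07, SE 0.0748, adjusted p = 0.601).

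The essential light chains were Myl3, the ventricular form, and Myl4, the embryonic and atrial form. Myl3 held 3756, 3993, 3814 and 3947 TPM in control libraries 1 to 4 and 3811, 4036, 3618 and 3647 TPM in cKO libraries 1 to 4 (log2 change -0.04, SE 0.0628, limma adjusted p = 0.755). Myl4 held 5000.4, 5329.5, 4816 and 5076 TPM in control and 5321, 5463, 5023 and 5025 TPM in cKO (log2 change 0.04, SE 0.0664, adjusted p = 0.741), and its sign turned after quantile normalization (-0.07). Both genes overlapped between the groups, and Myl4 was the thick filament gene with a higher mean in cKO. Cdc27 lies over Myl4 on the opposite strand. The remaining members were Myh7b, a further slow myosin (50.9 TPM in control, log2 change -0.08), and Mybpc3, myosin-binding protein C (1253 TPM in control, log2 change -0.05).

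Myh6, the fast alpha myosin heavy chain, was the thick filament gene with the lowest p (chr14:54941921-54968017, minus strand). Control libraries 1 to 4 held 1535, 1571, 1598 and 1458 TPM and cKO libraries 1234, 1365, 1386 and 1441 TPM. The highest cKO value lay just under the lowest control value. The log2 change was -0.18 (SE 0.0618, 95% interval -0.32 to -0.05, limma adjusted p = 0.107), so it did not pass over all rows. Myh6 and Myh7 lie next to each other on chr14 and have similar coding sequences, and Cmtm5 and Mhrt overlap them on the opposite strand, so the split of reads between these rows is uncertain where counting ignored strand or similarity.

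Thin filament genes held a summed level of 30993 ± 1403 TPM in control and 29811 ± 777 TPM in cKO (SD, n = 4), and 1 of 12 was called, Tmod1. A lower fitted level in cKO was found for 10 of the 12, against 55.8% of all tested rows. This became 9 after quantile normalization and 8 after median-ratio scaling or rescaling without mitochondrial and globin rows, and the split was not tested. Actc1, the cardiac actin and the most abundant of the 41 genes (chr2:114047282-114052875, minus strand), held 13939, 16328, 15288 and 15297 TPM in control libraries 1 to 4 and 14526, 15542, 13929 and 14499 TPM in cKO libraries 1 to 4. The lowest value was a cKO library and the highest a control library (log2 change -0.06, SE 0.0861, interval -0.25 to 0.14, limma adjusted p = 0.741). Acta1, the skeletal actin, held 448, 579, 489 and 454 TPM in control and 519, 634, 438 and 558 TPM in cKO (log2 change 0.12, SE 0.115, adjusted p = 0.575). Acta2, the smooth muscle actin that embryonic cardiomyocytes also make, held 1183, 1349.9, 1238 and 1101 TPM in control and 1179, 1291, 922 and 1220.2 TPM in cKO (log2 change -0.09, SE 0.104, adjusted p = 0.667). Both minor actins overlapped between the groups, and the lowest value of each was in cKO replicate 3. The 3 actins have nearly identical coding sequences, so their split is uncertain.

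Troponin T and tropomyosin, which hold the calcium switch on the filament, also overlapped. Tnnt2, the cardiac troponin T, held 4444, 4653, 4324 and 3814 TPM in control libraries 1 to 4 and 3958, 4008, 4657 and 4066 TPM in cKO libraries 1 to 4 (log2 change -0.05, SE 0.0839, limma adjusted p = 0.787). Tnnt1, the slow skeletal form, held 233, 220.3, 213 and 202 TPM in control and 242, 233, 261 and 182 TPM in cKO (log2 change 0.07, SE 0.099, adjusted p = 0.711). For Tnnt2 the highest cKO library stood apart from the other 3, and for Tnnt1 the cKO libraries held both the lowest and the highest value. Tpm1, alpha-tropomyosin, held 2946, 3274, 3109 and 3173 TPM in control and 3168, 3108, 2883 and 3181 TPM in cKO (log2 change -0.02, SE 0.0626, adjusted p = 0.887). Tpm2, beta-tropomyosin, held 106, 125, 130.1 and 134 TPM in control and 107, 119, 129.6 and 121 TPM in cKO (log2 change -0.05, SE 0.0808, adjusted p = 0.736). Tnnc1, the calcium-binding troponin C, stood at 2403 ± 138 TPM in control and 2367 ± 40.4 TPM in cKO (SD, n = 4). The small negative log2 changes of Tpm1 and Tnnc1 (-0.02 for the latter) became 0.02 each after mitochondrial and globin rows were taken out and TPM rescaled. Lmod2, a leiomodin that elongates thin filaments at the end that tropomodulin caps, stood at 121 ± 13.5 TPM in control and 115 ± 11.3 TPM in cKO (log2 change -0.07, limma adjusted p = 0.66).

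Troponin I, the inhibitory subunit, held the next lowest change of the thin filament after Tmod1. Tnni1, the slow skeletal isoform that the fetal heart uses, held 2691, 2468, 2667 and 2455 TPM in control libraries 1 to 4 and 2332, 2341, 2269 and 2257 TPM in cKO libraries 1 to 4. All cKO values lay below all control values (log2 change -0.16, SE 0.0571, 95% interval -0.29 to -0.03, limma adjusted p = 0.128), which did not pass. Tnni3, the cardiac isoform that later replaces it, held 897, 905, 877 and 895 TPM and 929, 819, 846 and 782 TPM in the same order, and cKO replicate 1 lay above every control (log2 change -0.08, SE 0.0582, adjusted p = 0.419). Tnni2, the fast skeletal isoform and not 1 of the 41, was far less abundant (chr7:142441816-142444410, plus strand). It held 53.1, 60.5, 59.4 and 52.2 TPM in control and 39.8, 35.02, 38.5 and 39.5 TPM in cKO, with every cKO library well below every control. It fell to 67.9% of control (log2 change -0.55, SE 0.065, limma adjusted p = 0.0024), and stayed past the threshold under all 17 alternative settings.

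**Figure D3:**
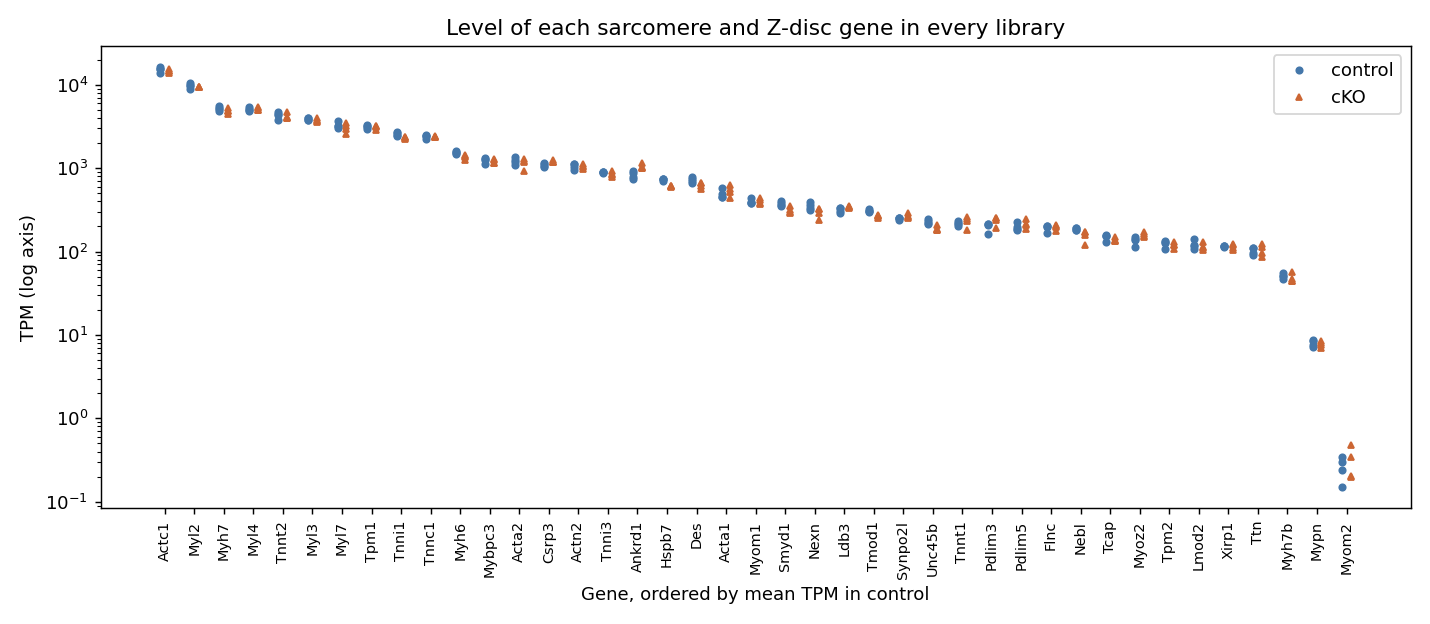
TPM (y axis, log scale) of each of the 41 genes in the 4 control (circles) and 4 cKO (triangles) libraries, ordered by the control mean (x axis). Actc1 is highest at about 15213 TPM in control, 15 genes have a control mean of at least 1000 TPM, and Myom2 lies lowest at 0.26 TPM.

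Isoform balance was compared within each library as the log2 ratio of TPM + 1 of 8 gene pairs, which rescaling a library to another total leaves nearly unaltered. In 7 of the 8 pairs the groups overlapped, and none passed after adjustment over the 8. The exact two-sided permutation test has 70 assignments and cannot give less than 0.0286. After adjustment over the 8 pairs, 1 pair alone at that p could therefore not pass. Myh7 exceeded Myh6 in TPM by a factor of 3.34 ± 0.184 in control and 3.61 ± 0.19 in cKO (SD, n = 4). The log2 ratio Myh6/Myh7 was -1.64, -1.81, -1.71 and -1.79 in control libraries 1 to 4 and -1.86, -1.94, -1.82 and -1.77 in cKO libraries 1 to 4. Its difference of -0.11 did not pass (exact permutation p = 0.114, adjusted p = 0.457), and it turned to 0.07 after quantile normalization.

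Tnni1 exceeded Tnni3 by a factor of 2.88 ± 0.165 in control and 2.73 ± 0.175 in cKO (SD, n = 4). The log2 ratio Tnni1/Tnni3 was 1.58, 1.45, 1.60 and 1.46 in control libraries 1 to 4 and 1.33, 1.51, 1.42 and 1.53 in cKO libraries 1 to 4, with cKO replicate 1 the lowest (exact permutation p = 0.286, adjusted p = 0.457). Myl3/Myl4, the ventricular against the atrial essential light chain, was the pair whose groups did not overlap. Its log2 ratio was -0.41, -0.42, -0.34 and -0.36 in control libraries and -0.48, -0.44, -0.47 and -0.46 in cKO libraries. This difference of -0.08 reached the smallest p that the test can give (exact permutation p = 0.0286). It did not pass after adjustment over the 8 pairs (adjusted p = 0.229), which 1 pair alone could not do, so the adjusted test does not decide on this pair. The TPM of Myl3 divided by that of Myl4 was 0.768 ± 0.0208 in control and 0.725 ± 0.00975 in cKO (SD, n = 4).

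In 4 of the other 5 pairs the skeletal, smooth muscle or beta form was the minor one in both groups. Divided by the TPM of Actc1, the TPM of Acta1 was 0.0323 ± 0.00238 in control and 0.0366 ± 0.00403 in cKO, and that of Acta2 was 0.0801 ± 0.00564 in control and 0.0786 ± 0.0084 in cKO (SD, n = 4). The TPM of Tnnt1 divided by that of Tnnt2 was 0.0505 ± 0.00267 in control and 0.0551 ± 0.00713 in cKO, and that of Tpm2 divided by that of Tpm1 was 0.0396 ± 0.003 in control and 0.0388 ± 0.00463 in cKO. For the regulatory light chains, the TPM of the ventricular Myl2 divided by that of the atrial Myl7 was 2.97 ± 0.221 in control and 3.08 ± 0.431 in cKO, with the widest spread among cKO libraries. The log2 ratios of these 5 pairs differed by 0.18 for Acta1/Actc1, -0.03 for Acta2/Actc1, 0.12 for Tnnt1/Tnnt2, -0.03 for Tpm2/Tpm1 and 0.05 for Myl2/Myl7, with exact permutation p from 0.171 to 0.743 (adjusted p from 0.457 to 0.743).

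**Figure D4:**
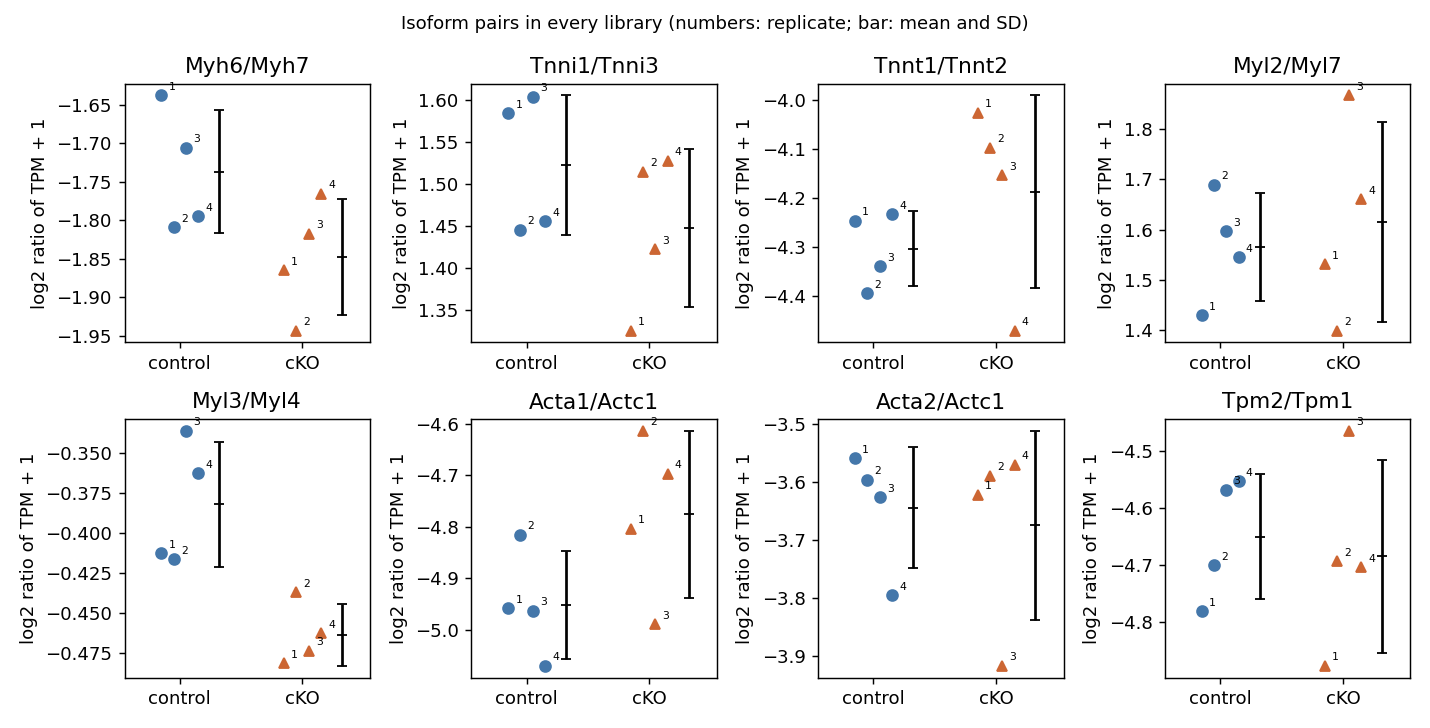
Log2 ratio of TPM + 1 (y axis, a separate scale for each pair) of 8 isoform pairs in each control (circles) and cKO (triangles) library, numbered by replicate, with the mean and SD as a bar. The groups are apart for Myl3/Myl4, by a difference of -0.08, and overlap for the other 7 pairs.

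No titin or M-band gene passed, and the signs of the log2 changes of Ttn and Myom1 turned when single libraries were left out. Ttn held 90.0, 109, 96.9 and 109 TPM in control libraries 1 to 4 and 85.1, 112, 95.99 and 124 TPM in cKO libraries 1 to 4, and the interval of its log2 change ran from -0.22 to 0.28. The cKO libraries held both the lowest and the highest value. Myom1, the myomesin that cross-links myosin at the M-band and the most abundant of these genes, held 382, 434, 380.0 and 398 TPM in control and 372, 439.8, 414 and 381 TPM in cKO, with overlapping groups (log2 change 0.01, SE 0.0663, limma adjusted p = 0.948). Myom2, the M-protein of adult fast muscle and heart, stayed below the 1 TPM filter with 0.15, 0.24, 0.349 and 0.302 TPM in control and 0.347, 0.48, 0.199 and 0.204 TPM in cKO, and was not tested.

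None of the 14 Z-disc genes passed, and their log2 changes had both signs. Of them 7 had a higher and 7 a lower mean in cKO as deposited, which became 9 and 5 under each of the 3 other scalings. Csrp3, the muscle LIM protein and the most abundant of the 14, held 1069, 1159, 1122 and 1043 TPM in control libraries 1 to 4 and 1257, 1194, 1190.2 and 1185 TPM in cKO libraries 1 to 4. All cKO values were higher, and the log2 change of 0.14 had an SE of 0.0527 and an interval from 0.02 to 0.25 (limma adjusted p = 0.154). Myoz2, a calcineurin-binding Z-disc protein, held 112, 148, 142 and 138 TPM and 161, 153, 173 and 151 TPM, also without overlap (log2 change 0.25, adjusted p = 0.115). Actn2, the sarcomeric alpha-actinin that builds the Z-disc lattice, stood at 1057 ± 74.03 TPM in control and 1039.8 ± 58.1 TPM in cKO (log2 change -0.02, interval -0.17 to 0.12).

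Des and Nebl had lower values in every cKO library than in any control without passing the test. Des encodes desmin, the intermediate filament that ties Z-discs together. It held 669, 779, 708 and 734 TPM in control libraries 1 to 4 and 564, 657, 608 and 655 TPM in cKO libraries 1 to 4 (log2 change -0.22, interval -0.37 to -0.07, limma adjusted p = 0.0833). Nebl encodes nebulette, a nebulin relative of the cardiac Z-disc. It held 191, 193, 181 and 182 TPM and 159, 171, 119 and 171 TPM, with cKO replicate 3 far below the other cKO libraries (log2 change -0.28, adjusted p = 0.132). Nexn, an actin-binding Z-disc protein, overlapped between groups (log2 change -0.25, adjusted p = 0.165). The remaining Z-disc members ran from -0.10 for Tcap (telethonin, the titin cap) to 0.23 for Pdlim3, an alpha-actinin-associated LIM protein, all with adjusted p of 0.203 or more. They include the PDZ-LIM genes Ldb3 (316 TPM in control, log2 change 0.12) and Pdlim5 (199 TPM, 0.11), the actin cross-linker Flnc (192 TPM, 0.03), Xirp1 (116 TPM, -0.02), Synpo2l (249 TPM, 0.09) and Mypn (myopalladin, 7.99 TPM, -0.03). Over the 40 tested members the groups did not overlap in 11, of which 8 were lower and 3 higher in cKO. That is 27.5% of them, against 15.6% of all tested rows.

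A wider list of 89 sarcomere, cytoskeletal and assembly genes outside the 41 was read from the same fit. Of 74 tested, 7 passed, or 9.46%, with 3 higher and 4 lower. The share beside it was again 6.4% of all rows. Besides Tnni2, the genes that fell were Cap2, an actin-recycling factor of striated muscle (log2 change -0.28, 82.2% of control, limma adjusted p = 0.0266), Myoz1, the fast skeletal relative of Myoz2 (from 23.1 ± 1.51 to 18.01 ± 2.11 TPM, log2 change -0.35, adjusted p = 0.0423), and Actn1, the non-muscle alpha-actinin (from 179 ± 7.51 to 155 ± 8.55 TPM, log2 change -0.21, adjusted p = 0.0426). The genes that rose were Synm, the intermediate filament protein synemin that partners desmin (from 8.47 ± 0.536 to 11.1 ± 0.878 TPM, log2 change 0.35, adjusted p = 0.0255), Dmd, which encodes dystrophin (from 12.7 ± 1.13 to 17.5 ± 2.58 TPM, log2 change 0.42, adjusted p = 0.0363), and Flna, the widely expressed filamin (from 203 ± 11.6 to 237 ± 10.4 TPM, log2 change 0.22, adjusted p = 0.0398). Flna and Actn1 are also made by non-muscle cells, whose epicardial and mesenchymal markers were higher in cKO, and the part of those cells in the values was not tested. Apart from Tnni2, each of these calls was lost in at least 5 of the 8 fits that left out 1 library, and the Myoz1 call in all 8. Myoz1 and Myoz2 had log2 changes of opposite sign, and the difference between them was not tested.

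**Figure D5:**
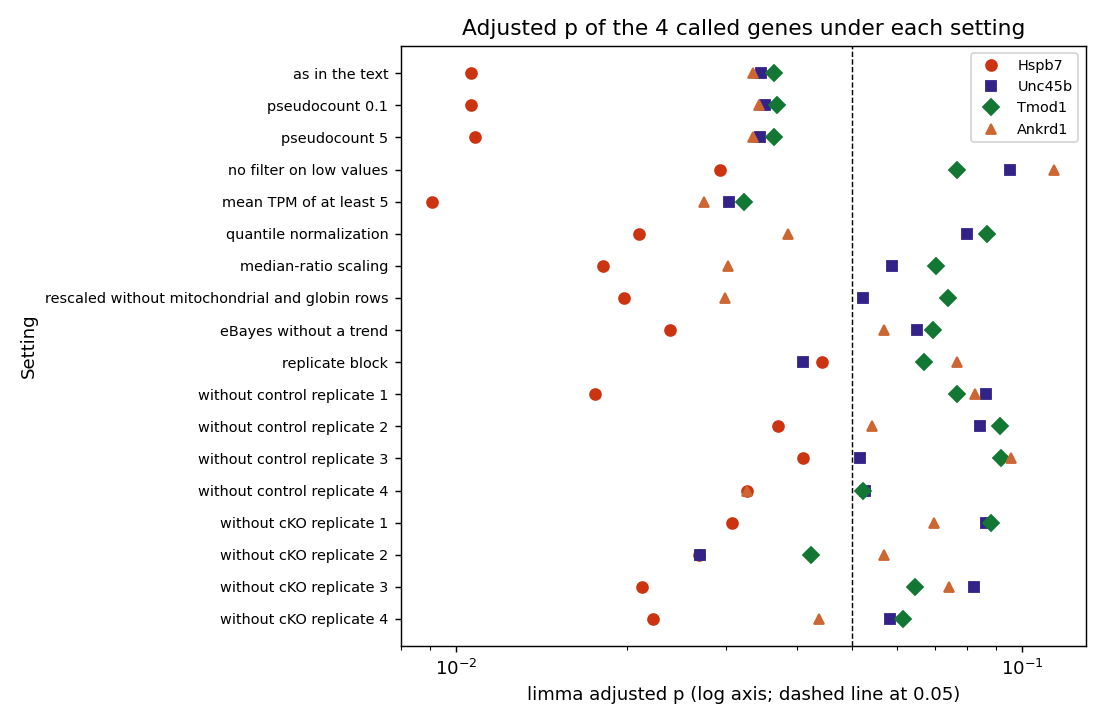
Limma adjusted p (x axis, log scale, dashed line at 0.05) of Hspb7, Unc45b, Tmod1 and Ankrd1 under the settings of the text and each of 17 alternatives (y axis). Hspb7 stays left of the line throughout, while the other 3 genes cross it under 9 to 13 of the alternatives.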

How the data were processed

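RNA sequencing of 8 ventricle libraries was analysed from 1 deposited table of TPM values, which per the file headers holds 1 column per library and row names with symbol, chromosome, strand, start and end. The submitters' processing notes name FastQC, Trim Galore 0.6.7, HISAT2 2.2.1, StringTie 2.2.1, featureCounts and DESeq2 and the build GRCm38, with no role or settings, and whether counting used strand is not given in the sources used here. Depth behind single values is unknown, so the precision given is that between libraries.

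Each library was mapped to its group by the titles. Values were analysed as log2(TPM + 1), on which low genes show understated changes. Rows with a mean of at least 1 TPM over the 8 libraries (15541) were tested in R 4.3.3 with limma 3.58.1 (lmFit, eBayes with a mean-variance trend, group as the only term, two-sided), with Benjamini-Hochberg adjustment over all of them and a threshold of 0.05. This fit was tested on simulated data. Isoform ratios were compared with an exact two-sided permutation test (scipy 1.17.1), adjusted over 8 pairs. The 17 alternatives were pseudocounts of 0.1 and 5, no filter and a mean of at least 5 TPM, 3 other scalings (quantile normalization, median ratios, and TPM rescaled after removing mitochondrial and globin rows), eBayes without a trend, a replicate block, and leaving out each library in turn.

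The members, the wider list and the marker lists were chosen with earlier results of these data known. The result of 1 marker list is not reported here. All 41 members are accounted for by role. Values in every library are given for called members, genes of the 8 pairs and the most abundant member of each role, and of the wider list the called genes are named. Other members were given in full where their groups did not overlap, a choice made after their values were seen. Promoters are the 250 bases before RefSeq transcript starts (GRCm38.p6).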

Additional observations from a re-analysis of the deposited data

Results flagged for a closer look

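For the members and the isoform ratios, 98 groups of 4 libraries were examined for a library far from the others in its group (by Dixon's 95% critical value for the gap over the range), which chance gives in about 1 in 20 groups, and 8 had one. In cKO these were the highest Tnnt2 value (4657 TPM), the highest Csrp3 value (1257 TPM) and the highest Ankrd1 value (1141 TPM), as well as the lowest log2 ratio of Acta2/Actc1 (-3.92). In control they were the lowest Hspb7 value (691 TPM), the lowest Tcap value (131 TPM), the lowest Pdlim3 value (164 TPM) and the lowest Flnc value (169 TPM). Without control replicate 1, which holds that Hspb7 value, the log2 change of Hspb7 was -0.29 (limma adjusted p = 0.0176). Without cKO replicate 3, which holds that Ankrd1 value, the log2 change of Ankrd1 was 0.29 and no longer past the threshold (limma adjusted p = 0.0743).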

How the results depend on the processing

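Across all rows 994 genes were called; the count was 347 with no filter on low values, 609 with eBayes without a trend, 420 with a replicate block and 388 to 936 without 1 library (565 or fewer without any 1 control, cKO replicate 1 or cKO replicate 3), and the other alternatives left it within 1.5 times. Of the 4 called members, 1 remained (Hspb7) with no filter or without a trend (0 higher, 1 lower), 2 (Ankrd1 higher, Hspb7 lower) under quantile normalization, median-ratio scaling or rescaling without mitochondrial and globin rows, and 2 (both lower, 0 higher) with the replicate block (Hspb7 and Unc45b). Without 1 library 1 to 4 members were called (0 to 1 higher, 1 to 4 lower), the 4 being Hspb7, Unc45b, Tmod1 and Smyd1 without cKO replicate 2. Without control replicate 1, 2 or 3, or cKO replicate 1 or 3, Hspb7 was the 1 member called, and without control replicate 4 or cKO replicate 4 it was called with Ankrd1. The 7 calls of the wider list became 1 with no filter, 4 under quantile normalization, 2 without a trend, 3 with the block and 1 to 6 without 1 library (4 or fewer except without cKO replicate 4). Of all calls 33.8% were higher in cKO, against 50.2% under quantile normalization, 47.8% under median-ratio scaling and 49.9% after rescaling. The median of the members ranged from -0.06 to -0.02 without 1 library. It lay above that of all tested rows without control replicate 2 (-0.017 against -0.031). Replicate numbers were not shown to pair the libraries: deviations of same-numbered libraries correlated at -0.01, 0.07, 0.06 and -0.09, and 2 of 4 cKO libraries correlated best with their own number. The block ended the calls of Tmod1 (adjusted p = 0.067) and Ankrd1 (adjusted p = 0.0768), and for the ratios a sign-flip test of 4 pairs cannot give less than 0.125. Under quantile normalization 4 ratio differences turned sign: ratio Myh6/Myh7 (0.0719), ratio Myl2/Myl7 (-0.0517), ratio Acta2/Actc1 (0.0490) and ratio Tpm2/Tpm1 (0.0519). Members near 0 turned sign as well: Actn2 (0.00444, 0.0182 and 0.0125 under median-ratio, quantile and rescaled values), Tnnc1 (0.00723, 0.04999 and 0.0153), Xirp1 (0.0103, 0.0342 and 0.0183), Tpm1 (0.00847 and 0.0165 under median-ratio and rescaled values) and Myl4 (-0.0741 under quantile normalization). Without 1 library the log2 change ranged from -0.144 to 0.0173 for Acta2, -0.0688 to 0.00818 for Actn2, -0.0331 to 0.0738 for Flnc, -0.0349 to 0.0516 for Myom1, -0.0733 to 0.0105 for Mypn, -0.0608 to 0.00465 for Tnnc1, -0.0470 to 0.0132 for Tpm1, -0.0562 to 0.122 for Ttn and -0.0578 to 0.0298 for Xirp1. The cause of these changes was not tested.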
